A study of Homo sapiens with 42 samples.

Results

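The zinc finger cluster at 19q13.12 is a run of related genes on the long arm of human chromosome 19, most of which encode a KRAB repressor domain followed by an array of C2H2 zinc fingers. The 30 genes were listed by name, and each was represented by the array probe set that carries its symbol alone and has the highest mean over all arrays. 29 of the 30 were measured, out of 18417 genes in all. ZNF260 was not analysed here, and HKR1 was found under its newer symbol, ZNF875. In RefSeq coordinates of GRCh38.p14 the 29 genes span 1598 kb, from position 36182060 to position 37779586 of chromosome 19. Of the other measured genes, 1 lies between the outermost members, the long non-coding RNA gene LINC00665. ZNF781 is annotated there as a transcribed pseudogene.

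KRAB zinc finger proteins bind DNA through their finger arrays and recruit the corepressor TRIM28 (KAP1) through the KRAB domain. TRIM28 in turn brings in the histone methyltransferase SETDB1 and the HP1 proteins, which deposit and bind H3K9me3. The family has grown by tandem duplication, so its genes sit in clusters, and these clusters themselves carry H3K9me3 in many human cells.

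RNA of HL-60 cells, a human acute myeloid leukemia line, came from 14 groups of 3 samples, each hybridized to 1 Affymetrix Human Gene 1.0 ST array (42 arrays). In the inhibitor experiment (18 arrays, 6 groups) cells received nothing (untreated), 10 µM GSK343, which competes with the methyl donor of the H3K27 methyltransferase EZH2, or 2.5 µM HKMTI-1-005. HKMTI-1-005 competes with the substrate and inhibits both EZH2 and the H3K9 methyltransferases G9a and GLP. Each was given alone or with 0.1 µM all-trans retinoic acid (ATRA), which drives these cells toward granulocytes, for 3 days. In the knockdown experiment (24 arrays, 8 groups) cells were untransduced (WT), carried a non-targeting shRNA (Scr), or carried the EZH2 hairpin shEZH2#1 or shEZH2#2, again without or with ATRA. The hairpins came from a lentivirus, and puromycin left a pool of transduced cells that was grown on, so the 3 arrays of a hairpin may share a transduction. The study describes the replicates as biological, while the labels name no separate cultures or transductions, and p-values measure the spread between these arrays. "EZH2 KD" below is the average of both hairpins.

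The question put to these genes was how each treatment, with or without ATRA, moved them relative to its own control. All levels below are the authors' log2 GC-RMA values, listed in order of replicate number, differences are log2 fold changes with standard errors (SE), and adjusted p-values come from limma, adjusted after Benjamini and Hochberg across the 18417 genes. The study's rule calls a gene when its adjusted p is at most 0.05, its fold at least 1.3 and its mean level in the top 40% of genes. Since 7 of the 29 members reach that top 40%, calls by the same rule without the level requirement are given as "called over all genes". In bulk RNA, fewer cells that express a gene and less of its RNA per cell cannot be told apart.

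The promoters of 26 of the 29 members could be matched to windows of 300 bases in RefSeq (GRCh38.p14), 250 before and 50 after the start. Where several starts were listed for a gene, such as 5 for HKR1, the outermost alone was used. Counts below hold for that window and not for other starts. They held between 12 and 37 CpG dinucleotides, with a median of 21.5 against 13 over all 27305 windows. CpG counts were not compared with those of other zinc finger genes. None of the 26 held TATAAA on either strand, against 3.34% of the windows of 419 other zinc finger genes and 12% of all windows. The core of the known ZNF143 motif (ACT, any base, CA, any 2 bases, TCCC), searched on both strands and chosen after the sequences had been seen, was in 9 of the 26 (34.6%), in 12.6% of the windows of 419 other zinc finger genes and in 2.55% of all windows. The 9 were ZNF146, ZNF461, ZNF567, ZNF850, ZNF790, ZNF568, ZNF527, ZNF569 and ZNF573. ZNF461 and ZNF567 start 97 bases apart on opposite strands and share the same match. 4 windows are printed, the first 3 for the members called with HKMTI-1-005 alone and the last for the member with the lowest p between the 2 knockdown controls. The first 3 were chosen after their values had been seen. Capitals mark the match to the ZNF143 core, which is read on the other strand in ZNF527, and the window of HKR1 has none. The windows are 19:36772758-36773057 (minus strand) for ZNF850, 19:37370849-37371148 (plus strand) for ZNF527, 19:37312587-37312886 (plus strand) for HKR1 and 19:36666788-36667087 (minus strand) for ZNF461.
ZNF850: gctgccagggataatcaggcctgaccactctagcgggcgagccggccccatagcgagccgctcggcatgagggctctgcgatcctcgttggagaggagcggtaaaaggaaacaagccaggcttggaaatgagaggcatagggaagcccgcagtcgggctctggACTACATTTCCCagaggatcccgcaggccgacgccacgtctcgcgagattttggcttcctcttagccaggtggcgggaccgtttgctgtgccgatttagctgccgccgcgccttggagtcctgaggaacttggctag
ZNF527: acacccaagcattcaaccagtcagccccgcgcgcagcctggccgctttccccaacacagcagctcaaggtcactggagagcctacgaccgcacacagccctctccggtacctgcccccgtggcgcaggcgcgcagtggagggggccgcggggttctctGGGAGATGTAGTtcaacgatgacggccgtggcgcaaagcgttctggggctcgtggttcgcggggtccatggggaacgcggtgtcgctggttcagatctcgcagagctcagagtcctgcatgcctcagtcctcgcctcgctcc
HKR1: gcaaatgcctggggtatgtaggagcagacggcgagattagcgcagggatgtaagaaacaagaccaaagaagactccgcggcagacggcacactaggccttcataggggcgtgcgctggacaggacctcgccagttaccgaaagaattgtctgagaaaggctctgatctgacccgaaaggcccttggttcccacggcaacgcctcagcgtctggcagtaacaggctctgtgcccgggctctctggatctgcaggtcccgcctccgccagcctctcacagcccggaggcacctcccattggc
ZNF461: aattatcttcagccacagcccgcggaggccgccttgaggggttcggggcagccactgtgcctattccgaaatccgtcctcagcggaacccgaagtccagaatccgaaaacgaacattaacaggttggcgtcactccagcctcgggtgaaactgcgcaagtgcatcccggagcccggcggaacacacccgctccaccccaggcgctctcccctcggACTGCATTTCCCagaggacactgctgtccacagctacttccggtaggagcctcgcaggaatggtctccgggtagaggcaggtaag

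The 29 members ranged from a mean level of 4.12 (ZNF540) to 11.30 (ZNF146), and 11 of them lay above the median gene, at 5.68. Levels of different probe sets are not on 1 scale, so this order describes signal and not RNA amounts. ZNF146, which encodes a finger array without a KRAB domain, gave a brighter signal than 98% of genes. ZNF850 (9.59) and ZNF383 (8.91) followed. ZNF566 (7.54), ZNF461 (7.18), ZNF529 (7.02) and ZNF567 (7.01) made up the rest of the 7 in the top 40%, for which the lowest mean was 6.88. ZNF790 (6.83) lay just below that line, and 6 members, from ZNF540 to ZFP82 (4.31), were brighter than only 2.66% to 12.3% of genes.

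**Figure D1:**
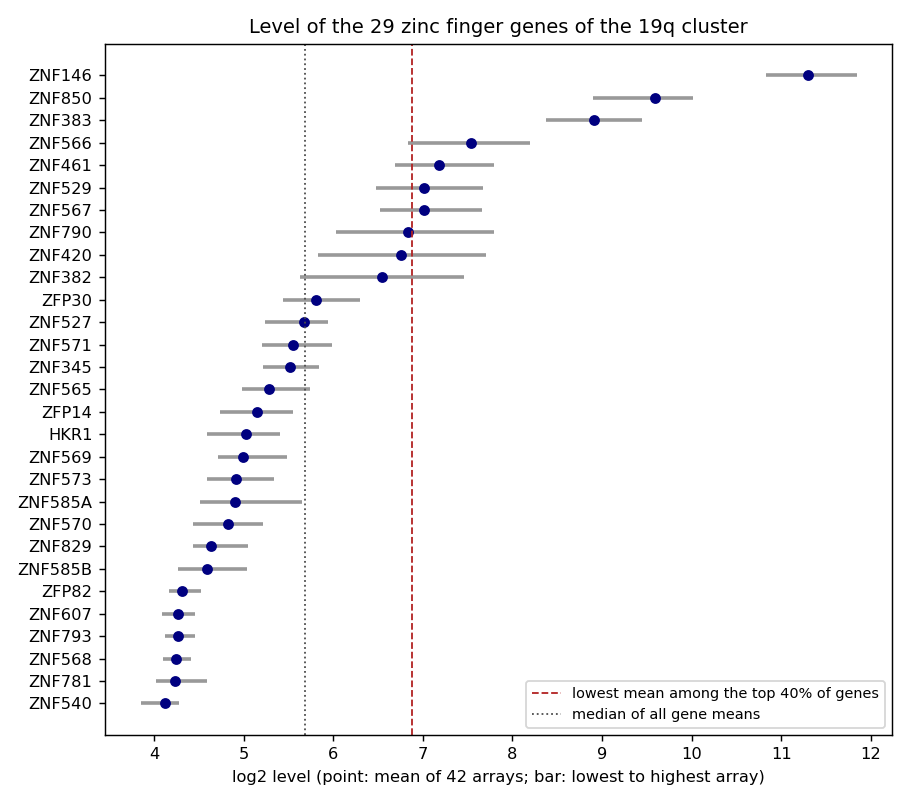
Log2 level of the 29 members (horizontal axis) over 42 arrays, as the mean (point) and the lowest to highest array (bar), sorted by mean. The dashed line is the lowest mean in the top 40% of genes (6.88) and the dotted line the median gene (5.68); 7 members lie above the first and 11 above the second.

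Myeloid marker genes gave signal on the arrays, which does not by itself identify the line. The levels that follow are from different probe sets and so not on 1 scale. The 6 measured myeloid markers, from AZU1 (mean 6.99) to MPO (12.9), had a median level of 9.08. The lists of lymphoid, monocyte and macrophage, and erythroid markers had median levels of 4.56, 4.37 and 5.16. EZH2 lay between 8.98 and 9.56 on the 6 arrays of both hairpins without ATRA and between 10.26 and 10.44 on the 3 Scr arrays. The log2 fold change was -1.08 (SE 0.13, adjusted p = 1.72e-05, limma), so the hairpin labels hold. The WT arrays read 9.81, 9.92 and 10.34, also above all hairpin arrays, but replicates 1 and 2 lay below all Scr arrays. The drop of EZH2 was thus smaller against WT than against Scr. 6 knockdown arrays had medians over all 33297 probe sets of 5.47 to 5.56, against 5.31 to 5.44 on the other knockdown arrays. They were picked as lying above the highest median of an inhibitor array (5.458), and the lowest of them (5.466) was close to that line. Replicates 1 and 2 of Scr were among the 6. The others were shEZH2#1 replicate 1, shEZH2#2 replicate 2, Scr+ATRA replicate 3 and WT+ATRA replicate 3. The 18 inhibitor arrays had medians between 5.36 and 5.46.

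With HKMTI-1-005 alone, genes of the cluster were lower than in untreated cells. 26 of the 29 members had a lower mean (50.4% of all genes did), and their median log2 fold change was -0.28, against -0.00 over all genes. ZNF850 was called by the study's rule, where 0.176% of the genes in the top 40% were called lower. ZNF850, ZNF527 and HKR1 were called over all genes, where 0.103% were called lower, and 0 members were called higher (0.119% of all genes). At an unadjusted p of 0.05 or less, 14 of 29 members (48.3%) were lower, against 2.79% of all genes, and 1 was higher, against 2.55%.

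ZNF850, a KRAB zinc finger gene, read 9.97, 9.98 and 10.02 on the untreated arrays and 9.33, 9.41 and 8.90 with HKMTI-1-005. All 3 treated arrays lay below all untreated ones, and the treated arrays were farther from each other than the untreated. The log2 fold change was -0.78 (SE 0.15, adjusted p = 0.0100, limma), a 1.71-fold lower level. Without HKMTI-1-005 replicate 3 or untreated replicate 3 it did not pass, and its adjusted p ranged from 0.0109 to 0.171 over the 6 arrays left out in turn.

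ZNF527 read 5.93, 5.79 and 5.94 on untreated arrays and 5.44, 5.48 and 5.46 with HKMTI-1-005. The groups were apart and the treated arrays close together. The difference was -0.43 (SE 0.08, adjusted p = 0.00581, limma), with adjusted p between 0.00808 and 0.0538 as arrays were left out. It did not pass without untreated replicate 1 or 3.

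HKR1, named for its likeness to the Krüppel finger genes, read 5.14, 5.09 and 5.27 untreated and 4.59, 4.82 and 4.66 with HKMTI-1-005. Its groups did not overlap either. The difference was -0.48 (SE 0.10, adjusted p = 0.0197, limma), and it did not pass without any 1 of 4 arrays, replicates 1 and 3 of either group. Both ZNF527 and HKR1 had mean levels below the top 40% of genes, so that the study's rule could not call them.

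Among members that were not called, ZNF571 read 5.75, 5.49 and 5.74 untreated and 5.32, 5.20 and 5.22 treated. The groups were apart, and the difference of -0.41 had an adjusted p of 0.0533 in limma. ZNF529 read 7.45, 7.63 and 7.67 untreated and 6.98, 7.17 and 6.48 treated (difference -0.70, adjusted p = 0.0836, limma). Its neighbor ZNF382, a KRAB repressor known as a tumor suppressor candidate, read 6.58, 6.89 and 6.89 untreated and 5.82, 6.31 and 6.18 treated (difference -0.68, adjusted p = 0.798, limma). ZNF529 and ZNF382 start 56 bases apart on opposite strands. The arrays of both genes were apart between the groups.

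ZFP14 (-0.44), ZNF790 (-0.52), ZNF383 (-0.40), ZNF566 (-0.38), ZNF567 (-0.38), ZFP30 (-0.36), ZNF585A (-0.31) and ZNF345 (-0.28) made up the rest of the 14 with lower means at an unadjusted p of 0.05 or less. Arrays did not overlap between the groups for 14 members that were lower, where 6.53% of all genes did not overlap in that direction. The 3 members with a higher mean were ZNF585B (0.07), ZNF540 (0.08) and the pseudogene ZNF781 (0.19), which are among the dim members. ZNF585A and ZNF585B are close paralogs, and how far the probes of either read the other was not tested.

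**Figure D2:**
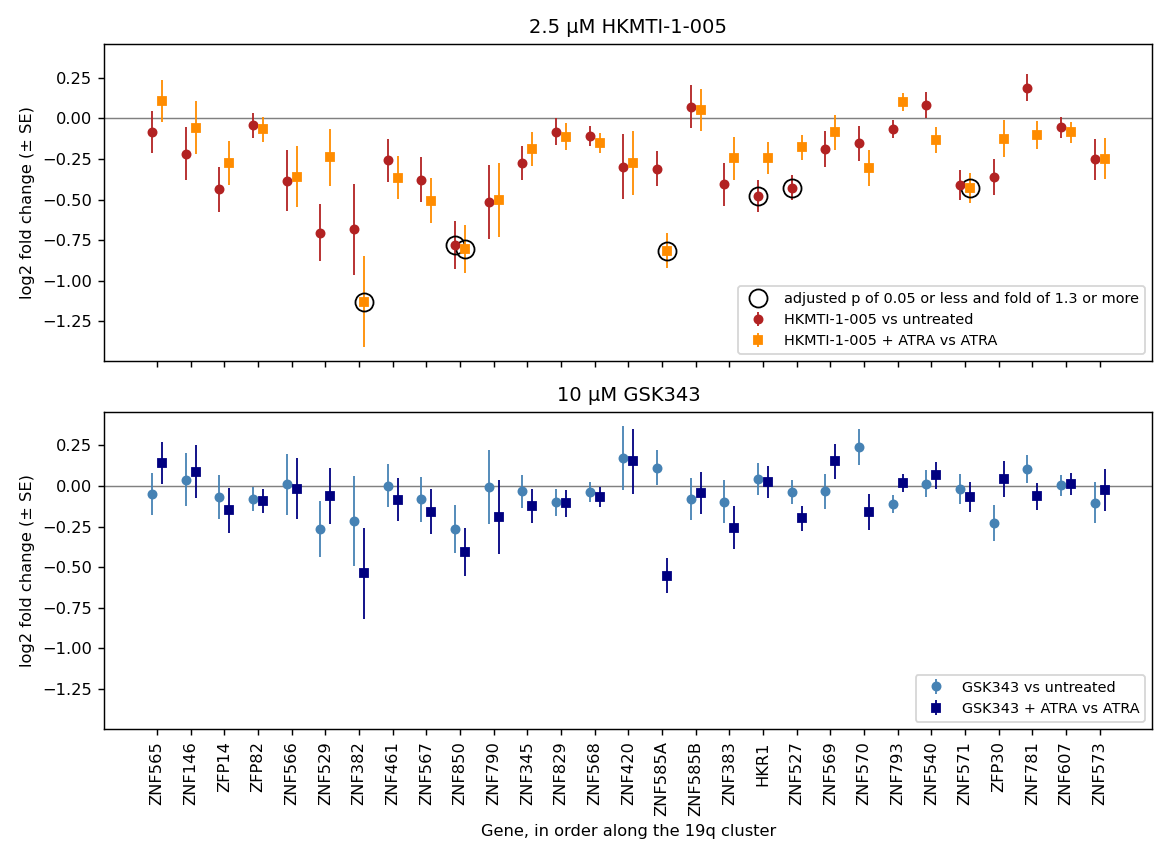
Log2 fold change with SE (vertical axis) of the 29 members in gene order along the cluster (horizontal axis), for 2.5 µM HKMTI-1-005 above and 10 µM GSK343 below, without ATRA (circles) and with it (squares); ringed points were called over all genes. With HKMTI-1-005, 26 members lie below 0 without ATRA and 26 with it, and 3 and 4 points are ringed. With GSK343, 19 lie below 0 without ATRA and 20 with it, and 0 points are ringed.

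The call of ZNF850 by the study's rule was lost when each array was centered on its median, and 0 members were then called. The count of 14 lower members was 11 under that centering (1.35% of all genes), 13 after quantile normalization (2.43%) and 17 with the inhibitor experiment fitted alone (4.21%). It ranged from 10 to 15 over the 6 arrays left out in turn. After centering, the median of all genes was 0.03 and that of the members -0.25.

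With ATRA present, HKMTI-1-005 was followed by lower levels in the cluster as well. 26 of 29 members had a lower mean than with ATRA alone (50.2% of all genes), with a median of -0.24. ZNF850 was called by the study's rule, where 0.366% of the genes in the top 40% were called lower. ZNF850, ZNF585A, ZNF382 and ZNF571 were called over all genes, where 0.293% were called lower. At an unadjusted p of 0.05 or less 11 members (37.9%) were lower, against 5.42% of all genes, and 0 were higher, against 5.66%. The count of 11 was 7 without replicate 3 of the combination (5.14% of all genes) and 7 after centering on array medians (2.99%).

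ZNF850 read 9.91, 9.98 and 9.95 with ATRA and 8.97, 9.29 and 9.18 with both agents. The groups were far apart, and the difference was -0.80 (SE 0.15, adjusted p = 0.00372, limma). It passed whichever of the 6 arrays was left out.

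ZNF585A read 5.66, 5.38 and 5.07 with ATRA and 4.63, 4.51 and 4.52 with both agents. The ATRA arrays were spread, and all 3 lay above those with both agents. The difference was -0.82 (SE 0.11, adjusted p = 3.32e-05, limma), and it too passed whichever array was left out.

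ZNF382 read 7.45, 7.44 and 6.56 with ATRA and 6.28, 5.63 and 6.17 with both agents. ATRA replicate 3 lay far below the other ATRA arrays, though above the treated ones. The difference of -1.13 (SE 0.28, adjusted p = 0.0500, limma) was greater in size than that of any other member here and sat at the threshold, and it passed in 1 of the 6 fits that left out an array.

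ZNF571 read 5.98, 5.54 and 5.76 with ATRA and 5.34, 5.45 and 5.21 with both agents. The groups did not overlap. The difference was -0.43 (SE 0.09, adjusted p = 0.0216, limma), and it did not pass without ATRA replicate 1 or replicates 1 or 3 of the combination.

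ZNF567, in the top 40%, read 7.17, 7.40 and 7.40 with ATRA and 6.98, 6.82 and 6.66 with both agents. The groups were apart, and the adjusted p of the difference of -0.51 was 0.0943. ZNF527 (-0.18) and HKR1 (-0.25), called without ATRA, had adjusted p-values of 0.358 and 0.307 here. The interaction of HKMTI-1-005 with ATRA was called for 0 of the 29 members (0.00543% of all genes were called lower), and at an unadjusted p of 0.05 or less it was lower in 2 members and higher in 2 (2.18% and 1.95% of all genes). For ZNF527 it was 0.25 (adjusted p = 1.00, limma), and for ZNF585A -0.51 (adjusted p = 0.771). A different response with and without ATRA was thus not shown for any of the 29. Arrays of 15 members did not overlap in the lower direction (9.11% of all genes).

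Averaged over cells without and with ATRA, an estimate added after the data had been seen, HKMTI-1-005 gave lower levels of ZNF850, ZNF382, ZNF585A, ZNF567 and ZNF571 over all genes, where 0.391% were called lower. The averaged difference was -0.79 for ZNF850 (SE 0.10, adjusted p = 1.77e-05), -0.91 for ZNF382 (SE 0.20, adjusted p = 0.0126), -0.56 for ZNF585A, -0.44 for ZNF567 and -0.42 for ZNF571. ZNF850 and ZNF567 were called by the study's rule, where 0.611% of genes were called lower. 19 of 29 members (65.5%) were lower at an unadjusted p of 0.05 or less, against 5.7% of all genes, and 0 were higher, against 6.02%.

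**Figure D3:**
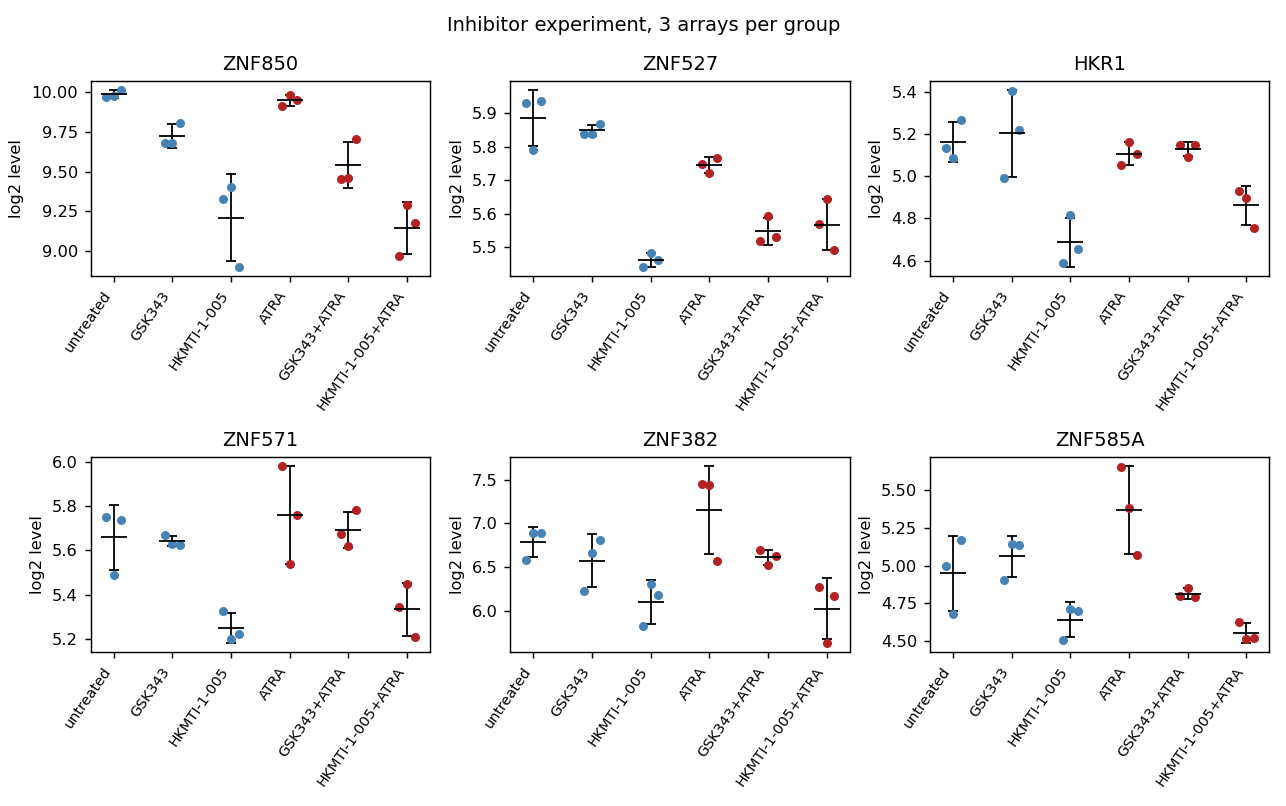
Log2 level (vertical axis) of 6 members on every array of the inhibitor experiment, by group (horizontal axis); points are arrays (red with ATRA, blue without), and lines are the mean and SD of 3 arrays. For ZNF850 the HKMTI-1-005 arrays lie at 8.90 to 9.41, below every untreated (9.97 to 10.02) and GSK343 array.

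GSK343, which shares the untreated and ATRA control arrays with HKMTI-1-005, gave no call in the cluster. 0 of 29 members were called by either rule without or with ATRA, where 0% of all 18417 genes were called lower and 0.0217% and 0.0163% higher. At an unadjusted p of 0.05 or less 1 member (ZFP30) was lower and 1 (ZNF570) higher without ATRA, against 1.36% and 2.69% of all genes. With ATRA 3 members were lower, ZNF585A, ZNF850 and ZNF527, against 1.41% of all genes. The medians of the members were -0.04 and -0.07. A lower mean was seen in 19 of the 29 members without ATRA (46.9% of all genes) and in 20 with it (46.2%).

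ZNF850 read 9.68, 9.68 and 9.81 with GSK343 alone and 9.45, 9.46 and 9.71 with GSK343 and ATRA. Both sets lay below all their control arrays and above all the corresponding HKMTI-1-005 arrays. The differences were -0.27 (SE 0.15) and -0.41 (SE 0.15), both with an adjusted p of 1.00 in limma. ZNF585A with GSK343 and ATRA read 4.80, 4.85 and 4.80, below all 3 ATRA arrays (difference -0.55, SE 0.11, adjusted p = 0.0629, limma).

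HKMTI-1-005 and GSK343 were given at different doses, 2.5 and 10 µM, so their difference compares these treatments and not the compounds at equal dose. Directly compared, HKMTI-1-005 was lower for HKR1 (-0.52, SE 0.10, adjusted p = 0.00884) and ZNF527 (-0.39, SE 0.08, adjusted p = 0.0116) over all genes in limma, where 0.293% were called lower. GSK343 arrays read 4.99, 5.40 and 5.22 for HKR1 and 5.84, 5.84 and 5.87 for ZNF527, above every HKMTI-1-005 array in both. ZNF850 differed by -0.51 (SE 0.15, adjusted p = 0.167, limma). 14 members were lower at an unadjusted p of 0.05 or less (4.12% of all genes), and 0 were higher (1.9%). With ATRA 0 members were called (0.581% of all genes were called lower) and 10 were lower at that p (5.49% of all genes). Averaged over cells without and with ATRA, ZNF850 (-0.45, SE 0.10, adjusted p = 0.0119) and HKR1 (-0.39, SE 0.07, adjusted p = 0.00101) were called over all genes, where 0.956% were called lower.

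With ATRA alone 2 of the 29 members were called over all genes against untreated cells, ZNF529 lower and ZNF585A higher, where 4.08% of all genes were called lower and 3.2% higher. These shares are close to those of the members, 3.45% in each direction. ZNF529 was called by the study's rule as well, where 7.85% of genes were called lower. ZNF529 read 7.45, 7.63 and 7.67 untreated and 6.76, 6.71 and 7.16 with ATRA, with no overlap (difference -0.71, SE 0.17, adjusted p = 0.00782, limma). Without ATRA replicate 1 or 2 it did not pass. ZNF585A read 5.00, 4.68 and 5.17 untreated and 5.66, 5.38 and 5.07 with ATRA, which overlap (difference 0.42, SE 0.11, adjusted p = 0.0111, limma), and it did not pass without ATRA replicate 1 or untreated replicate 2. In the WT cells of the knockdown experiment 0 members were called with ATRA, where 0.646% of all genes were called lower and 0.673% higher. There 4 were lower at an unadjusted p of 0.05 or less (5.95% of all genes), ZNF566, ZNF461, ZNF569 and ZNF793, and 0 were higher (3.89%).

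In the other zinc finger clusters compared, which were chosen with earlier results of these data known, the same direction was seen. Of 29 measured genes of 19p12, 11 (37.9%) were lower with HKMTI-1-005 and 20 (69%) with HKMTI-1-005 and ATRA at an unadjusted p of 0.05 or less, with medians of -0.14 and -0.38. Of 6 measured genes of 12q24.33, 4 (66.7%) were lower in each, with medians of -0.38 and -0.35. Over all 469 zinc finger genes outside 19q13.12, these clusters included, 20.3% and 22.4% were lower, with medians of -0.07 and -0.09. Of all genes, 2.79% and 5.42% were lower. No test compared the clusters with each other, and nothing here sets 19q13.12 apart from them.

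The 30 measured genes of a list of KRAB corepressors and H3K9 methylation enzymes gave 0 calls with HKMTI-1-005 alone, with 2 lower at an unadjusted p of 0.05 or less and a median of 0.00. With ATRA present, 1 of them was called, the H3K9 and H3K36 demethylase gene KDM4A, which was higher (0.68, SE 0.16, adjusted p = 0.0468, limma), where 0.326% of all genes were called higher. Averaged over cells without and with ATRA, 1 of the 30 was called, ZNF274, a KRAB zinc finger gene whose protein brings SETDB1 to zinc finger genes, which was lower (-0.48, SE 0.11, adjusted p = 0.0121, limma). TRIM28 (0.14 alone and 0.11 with ATRA) and SETDB1 (-0.13 and -0.03), named here for their role and not by a rule on values, did not pass.

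Knockdown of EZH2 against Scr gave 0 called members, by either rule, where 0.928% of all genes were called lower and 2.32% higher. At an unadjusted p of 0.05 or less 5 were higher and 2 lower, against 13.1% and 6.59% of all genes, and the median was -0.01. ZNF461, a KRAB zinc finger gene also known as GIOT1, read 6.69, 6.77 and 7.22 with Scr, 7.30, 7.60 and 7.20 with shEZH2#1 and 7.21, 7.04 and 7.23 with shEZH2#2. Scr replicate 3, the Scr array without a high median, lay among the hairpin arrays. The difference was 0.37 (SE 0.12, adjusted p = 0.0625, limma).

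ZNF569 read 4.79, 4.80 and 4.77 with Scr, 4.92, 5.33 and 5.10 with shEZH2#1 and 4.98, 5.00 and 5.06 with shEZH2#2. All 6 hairpin arrays were above all 3 Scr arrays, as in 2.47% of all genes, and the difference was 0.28 (SE 0.09, adjusted p = 0.0839, limma). ZNF420, known as Apak, which restrains p53, read 6.52, 6.13 and 6.84 with Scr, 7.24, 7.70 and 6.80 with shEZH2#1 and 6.81, 6.34 and 6.75 with shEZH2#2. Its shEZH2#2 arrays fell inside the Scr range, and the difference was 0.44 (SE 0.17, adjusted p = 0.135, limma).

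Taken alone, shEZH2#1 gave 3 members called higher over all genes against Scr, ZNF420 (0.75), ZNF383 (0.48) and ZNF461 (0.47), where 2.68% were called higher, and shEZH2#2 gave 0, where 0.538% were called lower and 0.912% higher. The difference between the hairpins was not tested. In ZNF420, ZNF383 and ZNF461, Scr replicate 3, the Scr array without a high median, lay inside the range of the shEZH2#1 arrays. Without the arrays of high median, Scr replicate 3 was the only Scr array left. EZH2 KD against Scr was then 0.18 for ZNF420, -0.15 for ZNF383 and 0.09 for ZNF461. The hairpin shEZH2#1 alone was not tested in that fit. With ATRA, EZH2 KD gave 0 called members against Scr+ATRA, where 1.01% were called lower and 2.01% higher, and 4 were higher at an unadjusted p of 0.05 or less (9.87% of all genes).

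Against WT cells, EZH2 KD gave 0 members called by the study's rule, where 0.204% of genes were called lower, and 2 called lower over all genes, ZFP30 and ZNF790, where 0.201% were called lower. ZFP30 read 6.03, 6.05 and 6.30 in WT cells, 5.44, 5.87 and 5.75 with shEZH2#1 and 5.72, 5.44 and 5.71 with shEZH2#2. The WT arrays were all above the hairpin arrays. The difference was -0.47 (SE 0.10, adjusted p = 0.0162, limma), and it did not pass without shEZH2#1 replicate 1 or WT replicate 3. Without the 6 arrays of high median it was -0.36 (adjusted p = 0.0749).

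ZNF790 read 7.26, 7.79 and 7.59 in WT cells, 6.03, 7.07 and 6.94 with shEZH2#1 and 6.83, 6.17 and 7.07 with shEZH2#2. The groups did not overlap, but the hairpin arrays were widely spread. The difference was -0.86 (SE 0.20, adjusted p = 0.0401, limma), and it did not pass in 6 of 9 fits that left out an array. Without the 6 arrays of high median it was -0.57 (adjusted p = 0.102), and 0 members were then called. 11 members (37.9%) were lower at an unadjusted p of 0.05 or less, against 7.24% of all genes, and the median was -0.15. The count of 11 was 7 without WT replicate 2 (6.09% of all genes) and 8 without WT replicate 1 (4.6%). With ATRA, ZNF790 and ZNF573 were called lower over all genes, where 0.852% were called lower.

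Members of the cluster also differed between the 2 controls. Scr cells, which share the WT arrays with the comparison above, had 5 members lower than WT by the study's rule, ZNF146, ZNF383, ZNF461, ZNF566 and ZNF567. That is 5 of the 7 members in the top 40%, where 18.4% of genes were called lower. Over all genes 8 members were called lower, with ZNF420, ZNF569 and ZNF790 added, where 8.76% were called lower, and 11 (37.9%) were lower at an unadjusted p of 0.05 or less, against 19% of all genes.

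ZNF461 read 7.79, 7.65 and 7.50 in WT cells, above all Scr arrays. The difference was -0.75 (SE 0.13, adjusted p = 0.000774, limma). ZNF569 read 5.27, 5.49 and 5.19 in WT cells, and here the Scr arrays (4.77 to 4.80) were lower and close together (difference -0.53, SE 0.11, adjusted p = 0.00266, limma). Both passed whichever of the 6 arrays was left out.

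ZNF567, which shares its promoter region with ZNF461, read 7.66, 7.31 and 7.10 in WT cells and 6.58, 6.62 and 7.04 with Scr (difference -0.61, SE 0.14, adjusted p = 0.00615, limma). ZNF790 read 6.39, 6.82 and 7.04 with Scr (difference -0.79, SE 0.23, adjusted p = 0.0219, limma). Neither overlapped with WT.

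ZNF383 read 9.42, 9.31 and 9.00 in WT cells and 8.37, 8.71 and 9.13 with Scr (difference -0.51, adjusted p = 0.0133, limma). ZNF566 read 8.19, 8.20 and 7.89 in WT cells and 7.31, 7.15 and 7.92 with Scr (difference -0.63, adjusted p = 0.0258). ZNF146 read 11.84, 11.44 and 11.41 in WT cells and 10.88, 10.83 and 11.48 with Scr (difference -0.50, adjusted p = 0.0420). In these 3 genes Scr replicate 3 lay inside the WT range and the 2 Scr arrays of high median lay below it. ZNF420 read 7.16, 7.43 and 6.91 in WT cells, all above the Scr arrays (difference -0.67, adjusted p = 0.0259, limma). Of the 8, the 6 other than ZNF461 and ZNF569 did not pass without Scr replicate 1, nor without Scr replicate 2, and without WT replicate 1 or 2 the number called by the study's rule was 1 or 2. Without the 6 arrays of high median Scr replicate 3 was the 1 Scr array left, assumed to vary like the other groups, and lower calls among all genes of the top 40% went from 1355 to 14, so this fit could call few genes. It called 0 members. The differences were then -0.08 for ZNF146, -0.12 for ZNF383, -0.18 for ZNF566, -0.32 for ZNF567, -0.33 for ZNF420, -0.43 for ZNF461, -0.50 for ZNF790 and -0.55 for ZNF569. The part of the high array medians in these calls was not tested further. With ATRA, ZNF461 alone was lower in Scr+ATRA than in WT+ATRA by the study's rule, where 0.733% of genes were called lower. It read 6.80, 6.69 and 6.87 against 7.47, 7.53 and 7.03.

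**Figure D4:**
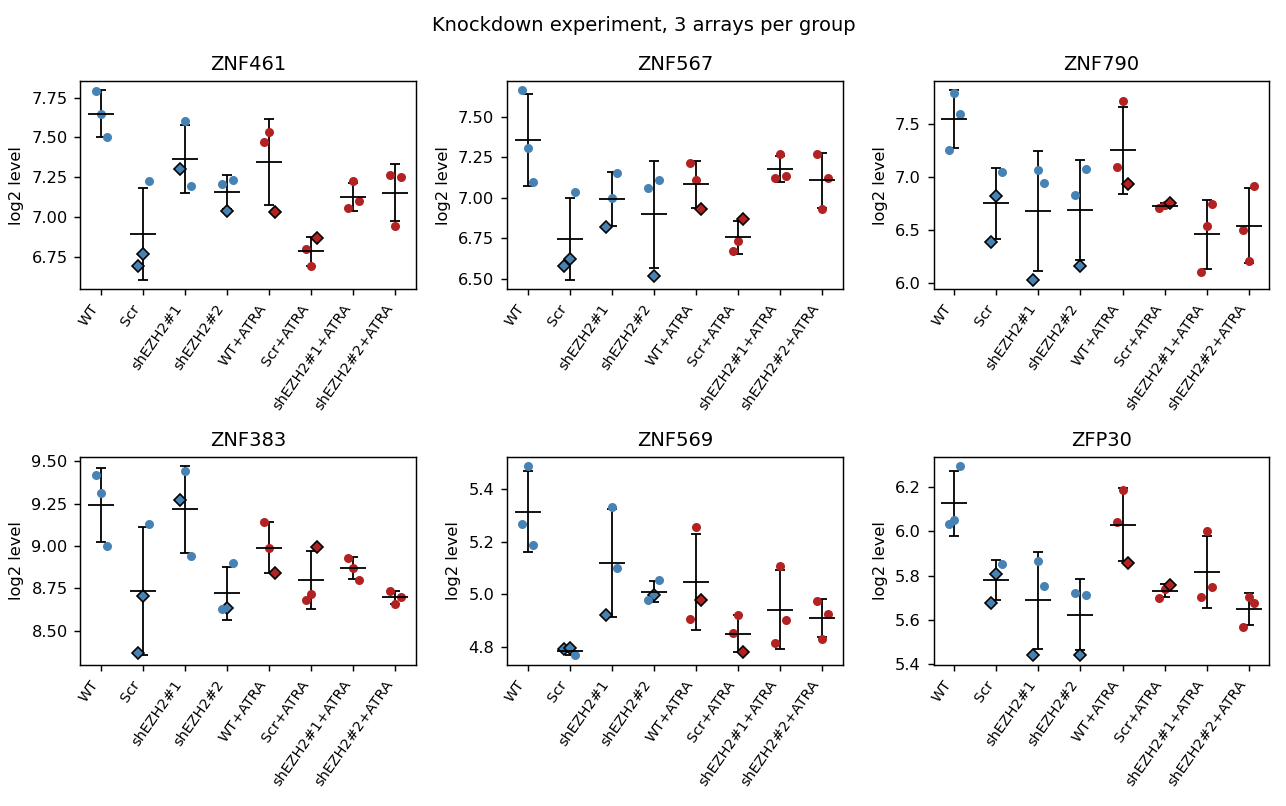
Log2 level (vertical axis) of 6 members on every array of the knockdown experiment, by group (horizontal axis); points are arrays (red with ATRA, blue without), diamonds are the 6 arrays of high median, and lines are the mean and SD of 3 arrays. For ZNF569 the 3 Scr arrays (4.77 to 4.80) lie below every WT array (5.19 to 5.49).

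ZNF850, ZNF527 and HKR1, called with HKMTI-1-005 alone, were not called with EZH2 KD against either control. ZNF850 read 9.42, 9.45 and 9.81 in WT cells, 9.68, 9.53 and 9.62 with Scr, 9.16, 9.62 and 9.87 with shEZH2#1 and 9.45, 9.34 and 9.38 with shEZH2#2. The groups overlapped, and the differences of EZH2 KD were -0.14 against Scr and -0.09 against WT. Against WT, HKR1 was not called, but its arrays did not overlap, as in 4 of the 29 members in the lower direction (2.94% of all genes). Its WT arrays (5.16 to 5.37) lay above every hairpin array (4.97 to 5.10 with shEZH2#1, 4.83 to 4.89 with shEZH2#2). Its Scr arrays (5.02 to 5.38) lay above those of shEZH2#2 and overlapped those of shEZH2#1. Without the arrays of high median, EZH2 KD against WT was -0.28 for HKR1 (adjusted p = 0.199, limma). It was -0.15 for ZNF527 (adjusted p = 0.463, limma) and 0.02 for ZNF850. The effect of HKMTI-1-005 minus that of EZH2 KD against Scr was -0.63 for ZNF850 (SE 0.19, adjusted p = 0.223, limma) and -0.42 for ZNF527 (SE 0.10, adjusted p = 0.0761). This difference of effects was called for 0 members, where 0.174% of all genes were called lower. It was lower for 13 (44.8%) at an unadjusted p of 0.05 or less, against 5.43% of all genes, and Scr replicates 1 and 2 enter it.

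6 pairs of members start within 1000 bases of each other on opposite strands, at distances from 22 to 328 bases. All listed starts were used for the pairs, and those of ZNF565 and ZNF790 lie outside the windows scored above. With HKMTI-1-005 alone the members of a pair had the following log2 fold changes. They were -0.08 and -0.22 for ZNF565 and ZNF146, -0.70 and -0.68 for ZNF529 and ZNF382, and -0.26 and -0.38 for ZNF461 and ZNF567. They were -0.52 and -0.28 for ZNF790 and ZNF345, -0.08 and -0.11 for ZNF829 and ZNF568, and -0.19 and -0.15 for ZNF569 and ZNF570. Between Scr and WT, ZNF461 and ZNF567 were both called, whereas ZNF790 was called (-0.79) and its partner ZNF345 (0.15) was not. A correlation over 6 pairs was not computed, since members share arrays.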

How the data were processed

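HL-60 RNA was hybridized to Affymetrix Human Gene 1.0 ST arrays. By its methods the study ran GC-RMA in Partek Genomics Suite (no version stated) and then the batch-removal step of that program against differences of batch and date. The log2 values that the authors deposited entered the fits unchanged. Their scale is unlabelled, and log2 was inferred from GC-RMA and from a lowest value of 3.18 and a median of 5.40. The batches are not named, so no batch term entered a fit. Precision is limited by 3 arrays per group.

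Of 33297 probe sets, 19460 carry 1 gene symbol, 1754 several and 12083 none. The brightest probe set with 1 symbol stood for each gene (18417 genes, 7367 in the top 40%). Group means over all 42 arrays were fitted with limma 3.58.1 in R 4.3.3 (28 residual and 3.37 prior degrees of freedom) and tested in 10 comparisons, 11 side comparisons, 4 interaction terms and 5 averages added after seeing the data. The script was tested on simulated data. Alternatives changed the scaling, the filter, the samples fitted, the block and the test, and left out each array in turn.

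Members, lists and named genes were chosen with earlier results of these data known. Members called in a comparison, or among the 3 of lowest p with HKMTI-1-005 or EZH2 KD against Scr, are given array by array, and the rest by range and count. Promoter windows and coordinates are from RefSeq (GRCh38.p14); the array table holds no coordinates. Same-numbered arrays of different groups deviated together no more than others (median correlation 0.0156 against 0.0203 in the inhibitor experiment, -0.0164 against -0.00310 in the knockdown). The authors' batch removal can take out such a shared deviation, so these correlations cannot tell whether arrays were paired. The numbers were not taken to pair arrays, and a fit with them as a block is given below. No degrees of freedom were deducted for the batch removal, so p-values may be too small.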

Additional observations from a re-analysis of the deposited data

How the results depend on the processing

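No called member changed direction under the settings tried. Of 167 values under other settings of single members that had been called, 113 kept the call and 54 lost it. Of 30 values of named members that had not been called, 1 gained a call. The share of all genes called is not given for each setting below. The counts here and with arrays left out thus describe the calls, and do not set members against other genes. The number of members called by the study's rule changed as follows. Fitted per experiment, it was 2 with HKMTI-1-005, 2 with HKMTI-1-005+ATRA and 2 in Scr against WT. Without the expression filter it was 3 with HKMTI-1-005, 4 with HKMTI-1-005+ATRA, 2 with ATRA, 2 with EZH2 KD against WT and 8 in Scr against WT. Quantile normalization gave 1 with EZH2 KD against Scr. Centering on array medians gave 0 with HKMTI-1-005 and moved the median in Scr against WT to -0.28. Without the 6 arrays of high median it was 1 with EZH2 KD+ATRA against Scr+ATRA and 0 in Scr against WT, where 1 Scr array was left. The methods' t-test gave 0 with HKMTI-1-005, 0 with ATRA, 0 with HKMTI-1-005+ATRA and 0 in Scr against WT after Benjamini-Hochberg adjustment. Averaged over cells without and with ATRA, chosen after seeing the data, it was 2 with HKMTI-1-005 and 1 with EZH2 KD against WT. The cause of these changes was not tested, beyond the number of genes that the filter lets through.

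With each array of a comparison left out in turn, the number of called members ranged from 0 to 2 with HKMTI-1-005, 1 to 1 with HKMTI-1-005+ATRA and 0 to 1 with ATRA, and was 0 with GSK343, GSK343+ATRA, WT+ATRA against WT and EZH2 KD against WT. It ranged from 0 to 3 with EZH2 KD against Scr, 0 to 2 with EZH2 KD+ATRA against Scr+ATRA and 1 to 5 in Scr against WT. The members' median ranged from -0.35 to -0.23 with HKMTI-1-005, -0.28 to -0.17 with HKMTI-1-005+ATRA, -0.07 to -0.01 with GSK343, -0.10 to -0.05 with GSK343+ATRA and -0.06 to -0.01 with ATRA. It ranged from -0.03 to 0.02 with EZH2 KD against Scr, -0.17 to -0.12 against WT, -0.02 to 0.02 with EZH2 KD+ATRA against Scr+ATRA, -0.11 to -0.07 with WT+ATRA against WT and -0.16 to -0.10 in Scr against WT. The HKMTI-1-005 call of ZNF850 was lost without HKMTI-1-005 replicate 3 or untreated replicate 3, and the ATRA call of ZNF529 without ATRA replicate 1 or 2. In Scr against WT the count fell without Scr replicate 1 or 2 and without WT replicate 1 or 2.

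With the replicate number as a block, 4 members were called in Scr against WT in place of 5, and the counts of the other 9 comparisons were unchanged, such as 1 with HKMTI-1-005. The block ended 2 calls of single members, ZNF146 in Scr against WT (adjusted p = 0.0542, limma) and ZNF382 with HKMTI-1-005+ATRA (adjusted p = 0.0701). The number of arrays limits the precision, and 18 members lay below the median gene in level, where background makes up more of the signal.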
